A study of Mus musculus with 18 samples.

Results

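Complex III, cytochrome c, complex IV and ATP synthase form the last part of oxidative phosphorylation, and 46 of their nuclear genes were followed here in mouse CD4+ T cells, out of 12393 genes on the array. Members were taken by gene symbol: those beginning with Uqcr, Cox4, Cox5, Cox6, Cox7, Cox8 or Atp5, together with Cyc1, Cycs, Cox15, Cox17 and Surf1. Where several probe sets measured a gene, the brightest on average was used. They comprise 9 genes of complex III, the cytochrome c gene Cycs, 16 genes of complex IV subunits, 3 genes of complex IV assembly and 17 genes of ATP synthase. Signal reached log2 4 on at least 3 arrays for 41 of the 46, and these were tested among 6873 genes. The other 5, Cox4i2, Cox6a2, Cox7a1, Cox8b and Cox8c, are isoforms known from lung, muscle or testis, and read between 2.15 and 2.90 on every array. Cox10 and Cox11, which act in heme A synthesis and in copper delivery to complex IV, were not analysed here.

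Complex III passes electrons from ubiquinol to cytochrome c, a small soluble protein that carries them to complex IV, where oxygen is reduced to water. Complexes III and IV pump protons across the inner mitochondrial membrane, and ATP synthase lets the protons flow back through a ring of c subunits that turns its catalytic head. ERRα is an orphan nuclear receptor, the product of Esrra, and is known to activate many of these genes together with the coactivators PGC-1α and PGC-1β, and activated T cells are known to build up mitochondria as they enlarge and divide.

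The arrays form 6 groups of 3 samples of CD4+ T cells from mice aged 6 to 8 weeks: stimulated ERRα knockout (ERRa-/-, ERRKO), resting ERRα knockout, wild-type with XCT790, wild-type with compound A, stimulated wild-type and resting wild-type. The labels state no animal or day shared between groups, but equally numbered arrays correlated in several comparisons, as given under the processing. Stimulation was 12 h with 10 µg of antibodies to CD3 and CD28, while resting cells were taken straight from the animal, so a difference between them joins activation with time in culture. XCT790 lowers ERRα activity as an inverse agonist, and compound A, a code name, is labelled an ERRα inhibitor too. Each was given at 20 µM. The labels of the 6 inhibitor arrays list no stimulation, whereas the treatment protocol and the design text have these cells stimulated for 12 h in the presence of the inhibitor, and the arrays were therefore set beside stimulated and beside resting wild-type arrays. The labels do not say how the knockout allele was made. Esrra read 4.45 ± 0.23 in stimulated knockout cells against 5.37 ± 0.09 in stimulated wild-type cells. At rest it read 4.55 ± 0.18 in knockout cells against 5.42 ± 0.15 in wild-type cells (log2, SD, n = 3 each; limma adjusted p = 3.31e-04 and 2.16e-04). Whether its probe set lies in the deleted part is not given in the sources used here.

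Start-site windows of 300 bases, from 250 before to 50 after the start, were taken from RefSeq for 34 of the 46 genes in mouse build GRCm38.p6. They were searched on both strands for 4 motifs known from promoters of respiratory genes. The ERR response element, searched as TNAAGGTCA, was matched in 1 member, Atp5g3 (2.94% of the 34, against 1.43% of all 27025 genes with a window). The NRF1 motif, a palindrome with a free base near its middle, was matched in 8 members, namely 6 of ATP synthase (Atp5c1, Atp5g2, Atp5g3, Atp5h, Atp5k and Atp5o) with Cox6a1 and Uqcrc1 (23.5%, against 5.19%). The ETS motif, searched as CCGGAAGT, was matched in Atp5h, Cox15, Cox8a, Uqcr11 and Uqcrh (14.7%, against 4.31%), and the YY1 motif, searched as AAGATGGCG, in Atp5j and Atp5j2 (5.88%, against 1.64%). A match is a run of letters in this window and no evidence that the factor binds there.

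The windows of 3 members are given 5′ to 3′ on the gene's own strand, with matched motifs in capitals. Atp5g3 is shown as the member with a match to the ERR element, read on the opposite strand as TGACCTTGA, whose first base lies 52 bases before the start, and it also has an NRF1 match that begins 13 bases after the start. The annotated Atp5g3 gene reaches further upstream than this window, to base 73912464. The start used thus lies inside the gene, and its upstream end was not searched. Uqcr11 is shown as the member furthest below stimulated wild-type cells with XCT790 and has 1 ETS match, 66 bases before the start. Atp5o is shown as the member that passed the test in stimulated knockout cells and with each inhibitor, and has 1 NRF1 match that begins 10 bases after the start.
Atp5g3, chr2:73911277-73911576, minus strand: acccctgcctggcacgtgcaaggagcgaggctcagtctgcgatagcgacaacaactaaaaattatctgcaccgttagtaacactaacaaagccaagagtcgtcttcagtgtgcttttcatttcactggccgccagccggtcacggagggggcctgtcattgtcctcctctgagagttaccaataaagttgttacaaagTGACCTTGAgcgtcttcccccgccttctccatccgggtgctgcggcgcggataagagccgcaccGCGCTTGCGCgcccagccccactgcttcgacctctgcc
Uqcr11, chr10:80406772-80407071, minus strand: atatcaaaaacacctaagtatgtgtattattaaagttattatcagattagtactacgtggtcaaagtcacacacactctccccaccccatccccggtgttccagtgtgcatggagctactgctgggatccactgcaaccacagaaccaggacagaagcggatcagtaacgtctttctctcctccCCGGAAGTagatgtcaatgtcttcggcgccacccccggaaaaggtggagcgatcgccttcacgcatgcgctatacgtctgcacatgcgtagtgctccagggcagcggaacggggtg
Atp5o, chr16:91931581-91931880, minus strand: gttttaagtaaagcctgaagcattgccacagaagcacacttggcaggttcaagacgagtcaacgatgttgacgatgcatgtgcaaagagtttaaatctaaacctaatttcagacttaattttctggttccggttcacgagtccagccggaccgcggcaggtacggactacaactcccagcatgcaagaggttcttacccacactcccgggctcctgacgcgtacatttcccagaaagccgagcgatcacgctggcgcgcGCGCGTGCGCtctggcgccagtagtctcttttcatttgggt

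All values are log2 signals that were quantile normalized, so a difference is measured against the rest of the genes of the same array. In bulk RNA, fewer cells of a type and less RNA per cell cannot be told apart. The bacterial dap spike-in, read by its 5′ probe set, split the 6 untreated wild-type arrays (3.99 to 6.38) from the other 12 (7.45 to 8.51). Read by its 3′ probe set, the same arrays overlapped (10.57 to 11.89 against 10.68 to 11.67), as they did by its middle probe set. In knockout or inhibitor comparisons with untreated wild-type cells, group and the 5′ split cannot be told apart. Comparisons of stimulated with resting cells of 1 genotype, and of XCT790 with compound A, do not cross it. T cell markers averaged 11.2 to 12.7 on all arrays. Markers of macrophages averaged 8.23 to 10.6 on the 6 resting arrays and 2.33 to 2.85 on the 12 others, and those of erythroid precursors averaged 10.2, 8.66 and 8.39 on the resting knockout arrays against 6.64, 3.55 and 4.84 on the resting wild-type arrays, with 2.23 to 2.33 on the 12 others.

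**Figure D1:**
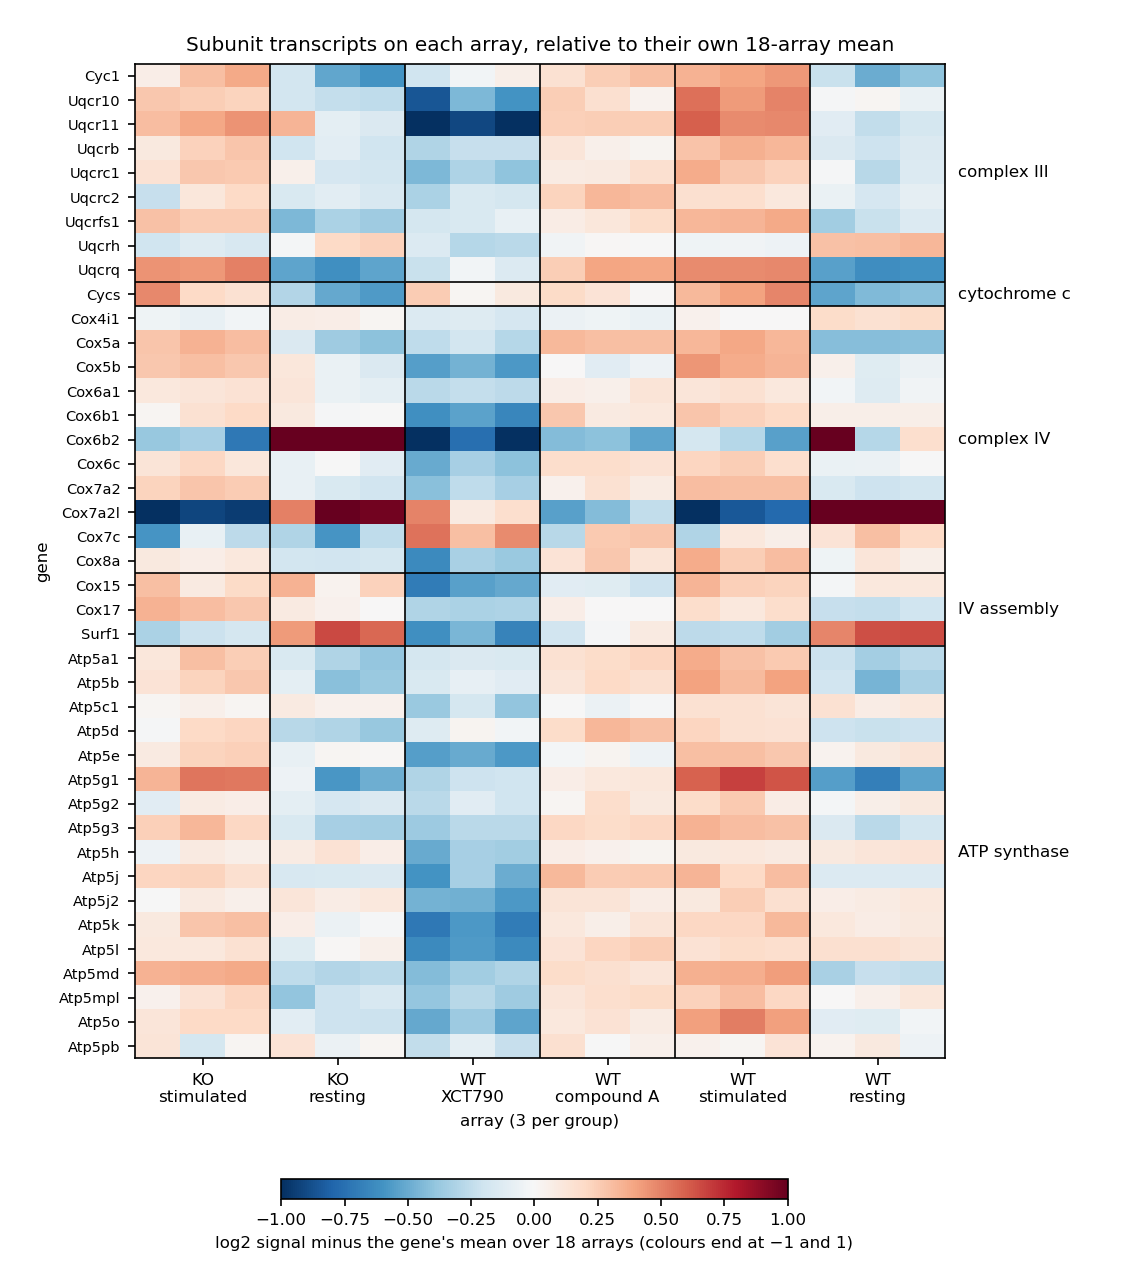
Log2 deviation of each of the 41 tested members (rows, grouped by complex) from its own mean over the 18 arrays (columns, 3 per group). The 3 XCT790 arrays are low for most members, with an array median of -0.37 to -0.28, against 0.11 to 0.13 with compound A and 0.23 to 0.29 in stimulated wild-type cells.

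Most genes of complex III and ATP synthase, and cytochrome c, rose on stimulation in both genotypes. In knockout cells 26 of 41 members rose (63.4%, where 37.7% of all tested genes rose) and 4 fell (9.76%, against 35.7% of all genes), with a median log2 difference of 0.27, against 0.02 over all tested genes. In wild-type cells 28 rose (68.3%, against 37.0% of all genes) and 4 fell (9.76%, against 38.4%), with a median of 0.26, against -0.01. These comparisons share no arrays, and 24 members rose in both while 3 fell in both. The rise in complex III was a median of 0.37 in knockout and 0.51 in wild-type cells, in ATP synthase 0.35 and 0.20, and in complex IV subunits 0.13 and 0.19. All 9 tested macrophage markers and all 5 tested B cell markers fell in both comparisons. Of 7 T cell markers 5 fell and 1 rose in knockout cells and 5 fell in wild-type cells, with means of 11.7 ± 0.115 in stimulated against 12.5 ± 0.284 in resting knockout cells and 11.8 ± 0.0841 against 12.7 ± 0.0422 in wild-type cells (SD, n = 3 each). The part of these markers in the results was not tested.

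In complex III, 7 of 9 genes rose in knockout cells and 8 of 9 in wild-type cells. Uqcrq, a small subunit near the ubiquinone site, read 12.53, 12.52 and 12.59 in stimulated against 11.56, 11.47 and 11.55 in resting knockout cells, and 12.55, 12.55 and 12.56 in stimulated against 11.54, 11.46 and 11.48 in resting wild-type cells. Its rise of 1.02 ± 0.06 in knockout cells (SE; adjusted p = 3.25e-09) and 1.06 ± 0.06 in wild-type cells (adjusted p = 1.54e-09) was the steepest of the complex, with each genotype's groups far apart. Cyc1, encoding cytochrome c1, the subunit that hands electrons to cytochrome c, read 11.27, 11.51 and 11.59 in stimulated against 11.03, 10.69 and 10.61 in resting knockout cells, and 11.56, 11.60 and 11.64 against 10.98, 10.71 and 10.80 in wild-type cells. It rose by 0.68 ± 0.11 in knockout and 0.77 ± 0.11 in wild-type cells (adjusted p = 7.98e-05 and 2.39e-05), and no stimulated array fell among the resting ones. Uqcr11, a small subunit at the edge of the complex, read 11.20, 11.28 and 11.34 in stimulated against 11.23, 10.79 and 10.74 in resting knockout cells, and 11.49, 11.37 and 11.37 against 10.77, 10.64 and 10.71 in wild-type cells. It rose by 0.35 ± 0.10 and 0.70 ± 0.10 (adjusted p = 0.00668 and 1.99e-05), but resting knockout array 1 overlapped the stimulated arrays, and the knockout call ended when only the 2 compared groups were fitted (adjusted p = 0.0811).

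Uqcrh, the hinge protein that helps cytochrome c1 meet cytochrome c, was the member of complex III that fell. It read 12.31, 12.38 and 12.34 in stimulated against 12.48, 12.71 and 12.73 in resting knockout cells, and 12.46, 12.47 and 12.45 against 12.79, 12.81 and 12.84 in wild-type cells. The falls were -0.30 ± 0.07 and -0.35 ± 0.07 (adjusted p = 0.00107 and 2.38e-04), with no overlap in either genotype. The Rieske iron-sulfur protein gene Uqcrfs1 rose by 0.64 in knockout and 0.59 in wild-type cells, while of the core proteins Uqcrc1 rose in both genotypes (0.32 and 0.43) and Uqcrc2 in wild-type cells (0.25), a call that ended without resting array 2 or without stimulated array 1 or 2. Cycs, the mobile carrier itself, read 13.12, 12.84 and 12.79 in stimulated against 12.34, 12.13 and 12.07 in resting knockout cells, and 12.96, 13.04 and 13.13 against 12.11, 12.20 and 12.22 in wild-type cells. Its rises of 0.73 ± 0.10 and 0.86 ± 0.10 (adjusted p = 1.01e-05 and 1.66e-06) left the groups apart in both genotypes.

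Complex IV moved in both directions. Of its 11 tested subunit genes, 5 rose and 2 fell in knockout cells, and 7 rose and 2 fell in wild-type cells. Cox5a, a subunit next to the catalytic core, read 13.60, 13.67 and 13.64 in stimulated against 13.18, 12.97 and 12.91 in resting knockout cells, and 13.66, 13.71 and 13.66 against 12.90, 12.90 and 12.91 in wild-type cells. It rose by 0.62 ± 0.06 and 0.77 ± 0.06 (adjusted p = 7.76e-07 and 5.80e-08) without overlap. Its partner Cox5b, which binds zinc, read 13.73, 13.75 and 13.72 in stimulated against 13.57, 13.39 and 13.31 in resting knockout cells, and 13.89, 13.83 and 13.80 against 13.51, 13.33 and 13.40 in wild-type cells. Cox7a2, the widely expressed isoform of its subunit, read 13.81, 13.87 and 13.85 in stimulated against 13.52, 13.44 and 13.40 in resting knockout cells, and 13.90, 13.89 and 13.89 against 13.44, 13.39 and 13.41 in wild-type cells. Both rose, Cox5b by 0.31 and 0.43 and Cox7a2 by 0.39 and 0.48, with all stimulated arrays above all resting ones of the same genotype.

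Cox7a2l, which encodes a protein that links complex III to complex IV in supercomplexes, fell the furthest of the members in wild-type cells. It read 10.57, 10.85 and 10.82 in stimulated against 12.27, 12.79 and 12.73 in resting knockout cells, and 10.73, 10.92 and 10.99 against 12.89, 13.12 and 13.00 in wild-type cells. The differences were -1.85 ± 0.15 and -2.12 ± 0.15 (adjusted p = 3.60e-08 and 6.75e-09), with the groups far apart in both genotypes. Cox4i1, the general isoform of the largest nuclear subunit, read 13.29, 13.26 and 13.30 in stimulated against 13.40, 13.39 and 13.35 in resting knockout cells, and 13.37, 13.33 and 13.33 against 13.51, 13.48 and 13.51 in wild-type cells. It fell in wild-type cells by 0.16 (SE 0.05; adjusted p = 0.00664) and in knockout cells the difference was -0.10 ± 0.05 (adjusted p = 0.0709). Cox6b2, a subunit isoform known from testis, read 5.04, 5.08 and 4.70 in stimulated against 9.41, 7.81 and 6.82 in resting knockout cells, and 5.24, 5.13 and 4.87 against 6.72, 5.13 and 5.59 in wild-type cells. Its fall in knockout cells was -3.07 ± 0.56 (adjusted p = 1.91e-04), and its wild-type difference of -0.73 ± 0.56 did not pass (adjusted p = 0.251), with array 2 of the resting group at the level of a stimulated array. The 6 tested erythroid markers moved with it, since all fell in knockout cells and 4 fell in wild-type cells, and their part in the result was not tested.

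Among the assembly genes, Cox17, the copper chaperone of the complex, read 11.20, 11.17 and 11.12 in stimulated against 10.94, 10.89 and 10.86 in resting knockout cells, and 11.03, 10.96 and 11.03 against 10.63, 10.61 and 10.66 in wild-type cells. It rose by 0.26 ± 0.05 and 0.37 ± 0.05 (adjusted p = 2.63e-04 and 8.83e-06), with tight and separate groups. Surf1, which acts early in assembly, read 9.01, 9.11 and 9.15 in stimulated against 9.75, 9.99 and 9.90 in resting knockout cells, and 9.06, 9.07 and 8.98 against 9.81, 9.97 and 9.98 in wild-type cells. It fell by 0.79 and 0.88 (SE 0.09 each; adjusted p = 1.44e-06 and 3.81e-07), the opposite direction to Cox17. Cox15, which makes heme A, read 6.76, 6.55 and 6.65 in stimulated against 6.81, 6.50 and 6.69 in resting knockout cells, and 6.80, 6.70 and 6.68 against 6.44, 6.56 and 6.56 in wild-type cells. Its wild-type rise of 0.20 ± 0.09 (adjusted p = 0.0421) ended under 8 of 14 alternatives, among them a trended and robust prior (0.109) and leaving out any 1 of the 6 arrays, and the knockout groups overlapped.

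No ATP synthase gene fell on stimulation, while 12 of 17 rose in knockout cells and 10 in wild-type cells. The 3 genes for the c subunit, which differ in the targeting peptide that is cut away on import, did not move alike. Atp5g1 read 11.68, 11.88 and 11.88 in stimulated against 11.29, 10.76 and 10.86 in resting knockout cells, and 11.94, 12.03 and 11.97 against 10.79, 10.66 and 10.81 in wild-type cells, rising by 0.84 ± 0.11 and 1.23 ± 0.11 (adjusted p = 6.31e-06 and 9.94e-08). Atp5g3 rose by 0.54 ± 0.06 and 0.51 ± 0.06 (adjusted p = 3.04e-06 and 4.11e-06), and Atp5g2 differed by 0.15 ± 0.07 and 0.13 ± 0.07 (adjusted p = 0.0808 and 0.128). Differences between these 3 genes were not tested. In the catalytic head, Atp5b, the β subunit that holds the catalytic sites, read 12.92, 13.00 and 13.04 in stimulated against 12.68, 12.36 and 12.40 in resting knockout cells, and 13.18, 13.10 and 13.18 against 12.58, 12.31 and 12.45 in wild-type cells. It rose by 0.51 ± 0.09 and 0.70 ± 0.09 (adjusted p = 8.89e-05 and 3.07e-06) beside the α subunit gene Atp5a1 (0.50 and 0.59), with no overlap for Atp5b. Another Atp5a1 probe set had the opposite sign but differed little, by -0.05 in knockout and -0.005 in wild-type cells. Its remaining probe set rose by 0.47 and 0.48, and neither was tested singly. Atp5md, a small protein that helps ATP synthase dimers hold together, read 11.08, 11.09 and 11.11 in stimulated against 10.47, 10.44 and 10.46 in resting knockout cells, and 11.08, 11.09 and 11.15 against 10.40, 10.49 and 10.48 in wild-type cells. Its rises of 0.64 ± 0.05 and 0.65 ± 0.05 (adjusted p = 6.82e-08 and 4.67e-08) left a clear gap between the groups.

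**Figure D2:**
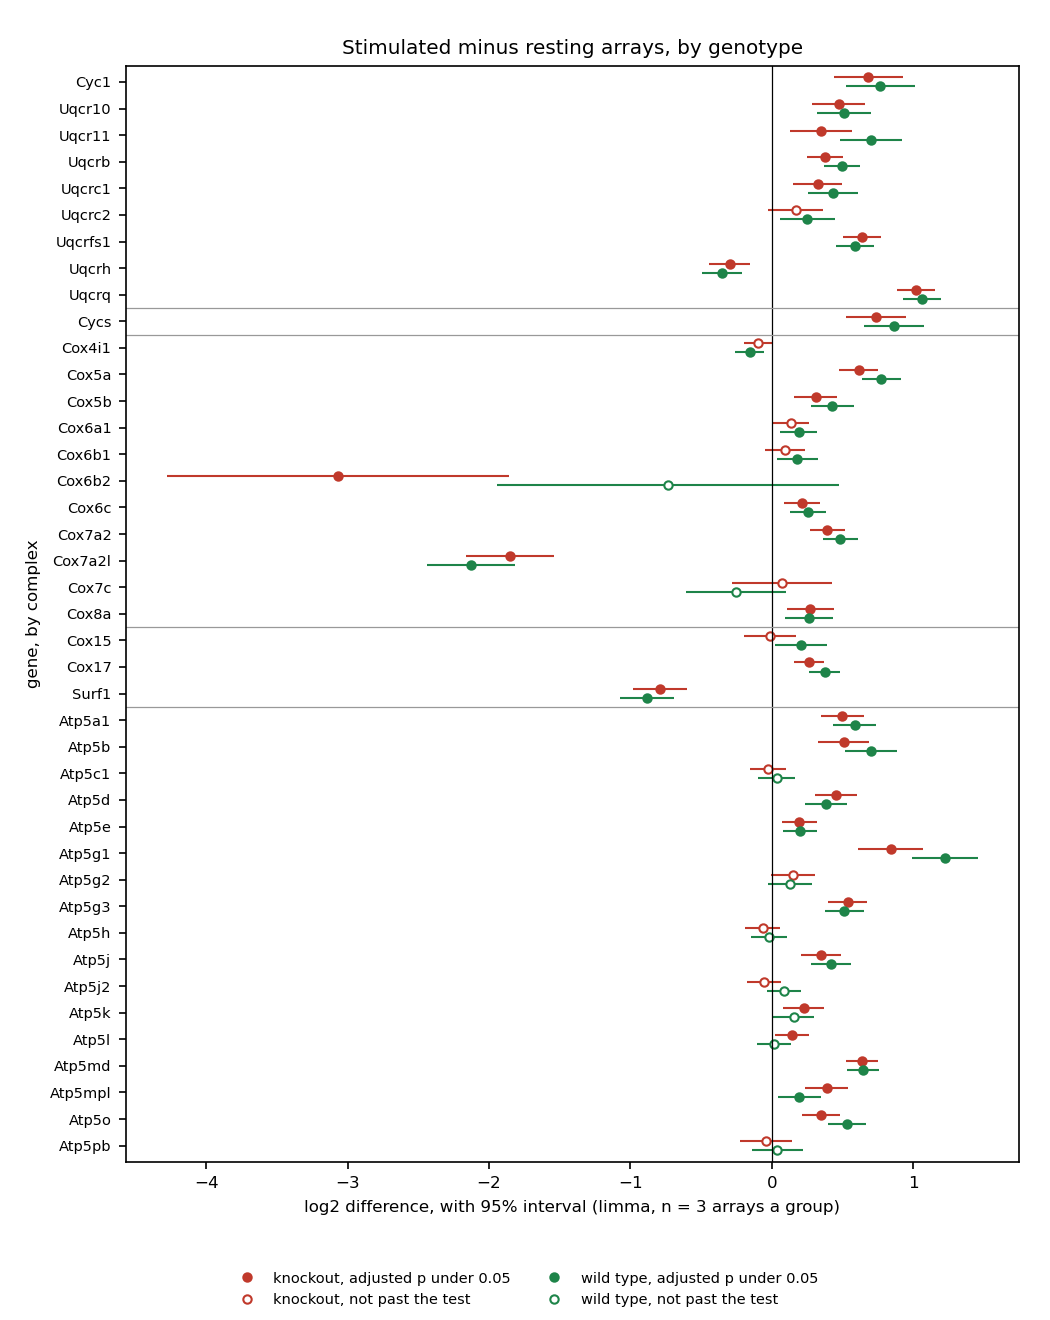
Log2 difference of stimulated from resting cells for each tested member, in knockout and in wild-type cells, with 95% confidence intervals from the limma fit, grouped by complex. Most points lie right of 0 in both genotypes, and Cox7a2l, Surf1 and Uqcrh lie left of it in both.

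The response to stimulation was set against genotype by an interaction term, knockout minus wild-type. It was passed by 0 of 41 members in either direction, where 0.480% of all genes were higher and 0.422% lower, and the median member value was -0.06 (all genes 0.05). By limma's unadjusted p under 0.05, 3 members were lower and 0 higher, and the share of all genes at that cut was not computed. The smallest adjusted p was that of Cox6b2, at 0.159 (-2.34, interval -4.05 to -0.63), followed by Atp5g1 at 0.217 (-0.39, interval -0.71 to -0.06) and Uqcr11 at 0.231 (-0.35, interval -0.66 to -0.04). These 3 unadjusted intervals exclude 0. In the resting knockout group array 1 read highest for each of these genes, with 9.41, 7.81 and 6.82 for Cox6b2 and 11.29, 10.76 and 10.86 for Atp5g1. Uqcr11 read 11.23, 10.79 and 10.74 there. Array 1 also had the group's highest macrophage, erythroid and neutrophil marker means (10.6, 10.2 and 9.32) and its lowest T cell mean (12.1). B cell means were 7.93 to 8.00. The part of these markers was not tested. Apart from Cox6b2, the lowest bound of any member's 95% interval was -0.71 and the highest 0.83.

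Few members passed the test between genotypes. At rest 2 of 41 were higher in knockout than in wild-type cells (4.88%, against 6.74% of all genes) and 2 were lower (4.88%, against 12.3%), shares below those of all genes. With the array number as a block 4 were lower. The median member difference was -0.02, where the median of all tested genes was -0.11, and it was 0.01 with arrays shifted to a common median. Cox17 read 10.94, 10.89 and 10.86 in resting knockout cells against 10.63, 10.61 and 10.66 in resting wild-type cells, higher by 0.27 ± 0.05 (adjusted p = 0.00337) with no overlap. Atp5mpl, a small proteolipid of ATP synthase, read 11.86, 12.04 and 12.09 in knockout against 12.25, 12.30 and 12.36 in wild-type cells, lower in each knockout array (-0.31 ± 0.07; adjusted p = 0.00970). Cox7c, a small subunit of complex IV, read 7.83, 7.55 and 7.88 in knockout against 8.27, 8.43 and 8.33 in wild-type cells (-0.59 ± 0.17; adjusted p = 0.0247). Each of these calls ended when only the 2 compared groups were fitted (adjusted p = 0.0818, 0.109 and 0.0597), and that of Cox7c also without wild-type array 2 or 3 or knockout array 2.

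Cox6b2 was higher in resting knockout cells, at 9.41, 7.81 and 6.82 against 6.72, 5.13 and 5.59 in resting wild-type cells (2.20 ± 0.56; adjusted p = 0.0174). The lowest knockout array stood just above the highest wild-type array. The 6 tested erythroid markers were all higher in the same comparison, with array means of 10.2, 8.66 and 8.39 in knockout against 6.64, 3.55 and 4.84 in wild-type cells, and Epor was under log2 4 on all 3 wild-type arrays. All 6 tested neutrophil markers were higher as well. Their part in the Cox6b2 result was not tested. The call ended without wild-type array 2 or 3 or knockout array 1, and when only the 2 compared groups were fitted (adjusted p = 0.144).

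After stimulation 0 of 41 members were higher in knockout cells (limma, where 1.59% of all genes were) and 1 was lower (2.44%, against 0.597%). At an unadjusted p under 0.05 there were 1 and 5, and the share of all genes at that cut was not computed. The 1 member lower by adjusted p was Atp5o, the stalk subunit that joins the head of ATP synthase to its base. It read 11.76, 11.85 and 11.85 in stimulated knockout against 12.06, 12.16 and 12.06 in stimulated wild-type cells (-0.27 ± 0.06, adjusted p = 0.0344). The arrays did not overlap, but the call ended with a common median (adjusted p = 0.0563), when only the 2 compared groups were fitted (0.0709) and whichever 1 of the 6 arrays was left out. Below 0 were 39 of the 41 differences, including all 9 of complex III, all 11 of complex IV subunits and all 17 of ATP synthase, against 66.1% of all tested genes, and 35 remained below 0 with a common median. The median was -0.11, against -0.06 for all genes, and -0.09 with a common median. Leaving out Cox6b2, every 95% interval lay between -0.62 and 0.27. Cox17 was again above wild-type, by 0.16 ± 0.05 (adjusted p = 0.138), at 11.20, 11.17 and 11.12 against 11.03, 10.96 and 11.03.

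**Figure D3:**
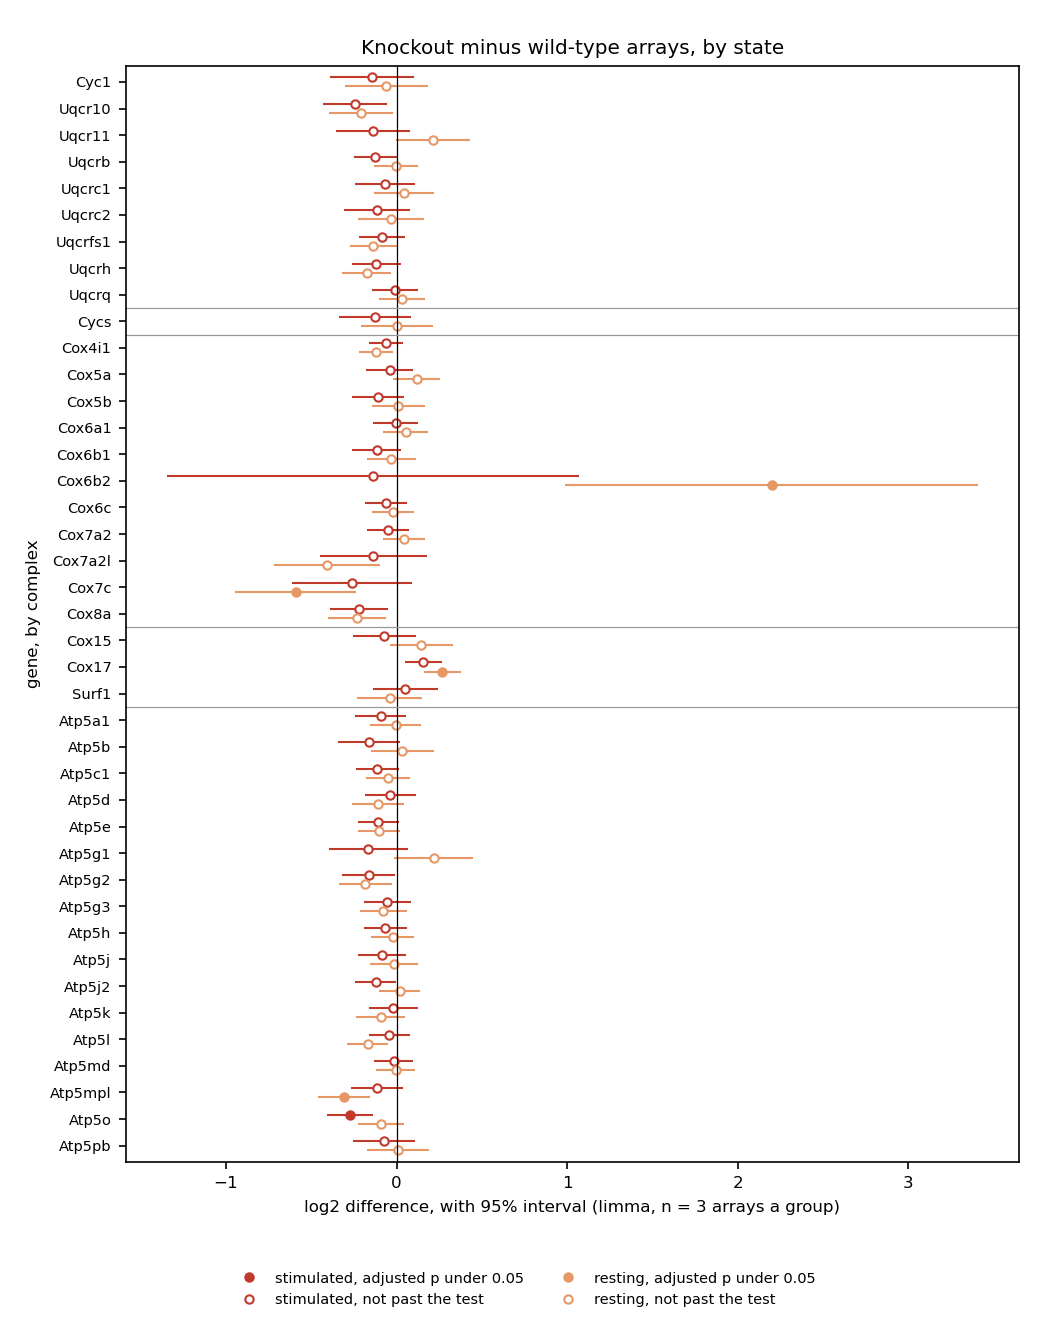
Log2 difference of knockout from wild-type cells for each tested member, after stimulation and at rest, with 95% confidence intervals from the limma fit, grouped by complex. The stimulated differences cluster just left of 0, with 39 of 41 below it, and Cox6b2 stands apart at rest with the widest interval.

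Nearly every gene of complexes III and IV and ATP synthase was lower with XCT790. Against stimulated wild-type cells 39 of 41 members were lower (95.1%, against 36.9% of all genes) and 2 higher (4.88%, against 29.1%), with a median of -0.59, where the median over all tested genes was -0.06. All 9 genes of complex III and all 17 of ATP synthase were lower, by medians of -0.58 and -0.61, and in complex IV 9 subunit genes were lower and 2 higher. The median was -0.54 with a common median, and 39 members stayed below 0. Stimulated knockout arrays lie on the same side of the spike-in split as the XCT790 arrays, and against them 34 of 41 members were lower and 2 higher (33.9% of all genes lower and 31.3% higher), with a median of -0.55. T cell markers were at 11.3 ± 0.0855 with XCT790 against 11.8 ± 0.0841 in stimulated wild-type cells (mean log2 of 7 genes, SD, n = 3 each), with 4 of the 7 lower and 1 higher, and their part in the result was not tested.

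In complex III, Uqcr11 stood furthest down. It read 9.82, 9.98 and 9.86 with XCT790 against 11.49, 11.37 and 11.37 in stimulated wild-type cells, a difference of -1.52 ± 0.10 (adjusted p = 2.12e-08), and lay below the resting wild-type arrays as well. Uqcr10, a small subunit near cytochrome c1, was lower by -1.12 ± 0.09 (adjusted p = 8.19e-08), at 10.52, 10.93 and 10.78 against 11.93, 11.80 and 11.87. Another, dimmer Uqcr10 probe set averaged 9.17 with XCT790 and 9.14 in stimulated wild-type cells and did not show this. It was the exception among 30 other member probe sets above log2 4, of which 29 had the sign of the probe set used. Cyc1 was at 11.01, 11.18 and 11.27 against 11.56, 11.60 and 11.64 (-0.45 ± 0.11; adjusted p = 0.00297). Uqcrh, with the smallest difference of the complex, was at 12.37, 12.22 and 12.23 against 12.46, 12.47 and 12.45 (-0.19 ± 0.07; adjusted p = 0.0229), a call that ended under 6 of 15 alternatives.

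In ATP synthase the smallest p-values were those of Atp5e, Atp5o, Atp5md, Atp5l and Atp5k. Atp5e, the ε subunit of the central stalk, read 12.00, 12.04 and 11.98 with XCT790 against 12.85, 12.85 and 12.82 in stimulated wild-type cells (-0.83 ± 0.06; adjusted p = 2.35e-08). Atp5o read 11.13, 11.28 and 11.12 against 12.06, 12.16 and 12.06 (-0.91 ± 0.06; adjusted p = 2.47e-08). Atp5k and Atp5l, the e and g subunits at the dimer interface, read 11.92, 12.06 and 11.94 against 12.84, 12.84 and 12.96 for Atp5k, and 11.76, 11.83 and 11.77 against 12.54, 12.58 and 12.57 for Atp5l. Their differences were -0.91 ± 0.07 and -0.78 ± 0.06 (adjusted p = 5.10e-08 and 4.31e-08), and each XCT790 array lay below every array of the other 5 groups. Atp5md read 10.29, 10.38 and 10.43 against 11.08, 11.09 and 11.15 (-0.74 ± 0.05; adjusted p = 3.83e-08). Smaller differences were those of the δ subunit gene Atp5d (-0.21) and the b subunit gene Atp5pb (-0.26), whose calls ended under 3 and 4 of 15 alternatives. Another probe set of each, averaging 12.19 and 12.05 over the 18 arrays, differed by more, at -0.53 and -0.80. Atp5c1, the γ subunit gene, differed by -0.46 in the probe set used, and its other probe set averaged 3.60 with XCT790 and 2.91 in stimulated wild-type cells, under log2 4 in both.

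Cox7a2l ran the other way in complex IV. It read 12.26, 11.85 and 11.94 with XCT790 against 10.73, 10.92 and 10.99 in stimulated wild-type cells, higher by 1.14 ± 0.15 (adjusted p = 8.39e-06). These arrays stayed below the resting wild-type arrays, at 12.89, 13.12 and 13.00 (-0.99 ± 0.15; adjusted p = 2.42e-05). Cox7c was higher too, at 8.68, 8.43 and 8.61 against 7.83, 8.24 and 8.19 (0.48 ± 0.17; adjusted p = 0.0182), a call that ended without wild-type array 1 or XCT790 array 1. Cox5b read 12.90, 12.98 and 12.88 against 13.89, 13.83 and 13.80 (-0.92 ± 0.07; adjusted p = 7.99e-08), and Cox6b1, the general isoform of the subunit of which Cox6b2 is the testis form, read 12.26, 12.34 and 12.22 against 13.15, 13.10 and 13.07 (-0.84 ± 0.07; adjusted p = 9.98e-08). The groups were well apart for both genes. Cox6b2 itself read 2.74, 4.66 and 3.69 against 5.24, 5.13 and 4.87 (-1.38 ± 0.56; adjusted p = 0.0427), with 2 XCT790 arrays under log2 4, and the call ended under 8 of 15 alternatives. All 3 assembly genes were lower: Cox15 by -0.85, Cox17 by -0.46 and Surf1 by -0.29.

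Set beside resting wild-type cells, the XCT790 arrays were lower in 26 of 41 members (63.4%, against 38.3% of all genes) and higher in 7 (17.1%, against 33.6%), with a median of -0.32, or -0.22 with a common median (all genes -0.05). Atp5l, at 11.76, 11.83 and 11.77 against 12.56, 12.56 and 12.53, was lower by -0.76 ± 0.06 (adjusted p = 1.81e-08). Surf1, at 8.71, 8.87 and 8.66 against 9.81, 9.97 and 9.98, was lower by -1.18 ± 0.09 (adjusted p = 2.07e-08). Also among the smallest p-values were Atp5k (-0.75), Atp5e (-0.63), Atp5j2, the f subunit gene (-0.59, at 12.31, 12.31 and 12.21 against 12.85, 12.87 and 12.90), and Cox6b1 (-0.66, at 12.26, 12.34 and 12.22 against 12.93 on each array). The 7 that were higher included Cycs (0.58 ± 0.10), Uqcrq (0.46 ± 0.06), Atp5g1 (0.35 ± 0.11) and Cyc1 (0.32 ± 0.11), all of which rose on stimulation in both genotypes. The call of Cyc1 ended under 4 of 14 alternatives. Uqcr10 was among the lower members by the probe set used (10.74 against 11.35). Its other probe sets averaged higher with XCT790 than at rest, at 9.19 against 8.48 and 9.17 against 7.37. With all its probe sets averaged, Uqcr10 passed as higher (limma adjusted p = 5.7e-07).

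Compound A moved fewer members. Against stimulated wild-type cells 12 of 41 were lower (29.3%, against 18.7% of all genes) and 2 higher (4.88%, against 14.5%), with a median of -0.13 (-0.10 with a common median, all genes -0.03). The 12 comprised 3 genes of complex III, Cycs, 2 of complex IV subunits, Cox15 and 5 of ATP synthase. Against stimulated knockout arrays 6 members were lower and 2 higher (12.0% of all genes lower and 14.1% higher), with a median of -0.04. Cox5b read 13.46, 13.34 and 13.41 with compound A against 13.89, 13.83 and 13.80 in stimulated wild-type cells (-0.44 ± 0.07; adjusted p = 4.42e-04). Atp5g1 had the largest difference among the 12, at 11.41, 11.45 and 11.46 against 11.94, 12.03 and 11.97 (-0.54 ± 0.11; adjusted p = 0.00190). Neither gene's groups overlapped.

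Atp5o read 11.75, 11.79 and 11.72 with compound A against 12.06, 12.16 and 12.06 in stimulated wild-type cells (-0.33 ± 0.06; adjusted p = 0.00121), but did not pass against stimulated knockout arrays (adjusted p = 0.497). Atp5e read 12.53, 12.58 and 12.50 against 12.85, 12.85 and 12.82 (-0.30 ± 0.06; adjusted p = 0.00125). Cox15 read 6.35, 6.34 and 6.25 against 6.80, 6.70 and 6.68 (-0.41 ± 0.09; adjusted p = 0.00232). All 3 genes were lower on each compound A array. Uqcrb, a ubiquinone-binding subunit of complex III, read 14.33, 14.26 and 14.24 against 14.49, 14.57 and 14.54 (-0.26 ± 0.06; adjusted p = 0.00457, and 0.109 against stimulated knockout arrays). Cycs read 12.83, 12.77 and 12.65 against 12.96, 13.04 and 13.13 (-0.29 ± 0.10; adjusted p = 0.0351), a call that ended under 7 of 15 alternatives. The 2 higher members were Cox7a2l, at 11.22, 11.33 and 11.52 against 10.73, 10.92 and 10.99 (0.48 ± 0.15; adjusted p = 0.0214), and Surf1, at 9.13, 9.32 and 9.42 against 9.06, 9.07 and 8.98 (0.25 ± 0.09; adjusted p = 0.0425), whose calls ended under 3 and 8 of 15 alternatives.

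Beside resting wild-type cells, compound A arrays were higher in 21 of 41 members (51.2%, against 32.6% of all genes) and lower in 5 (12.2%, against 37.1%), with a median of 0.17 (0.24 with a common median, all genes -0.05). Uqcrq read 12.33, 12.48 and 12.47 with compound A against 11.54, 11.46 and 11.48 (0.93 ± 0.06; adjusted p = 1.01e-08), and Cox5a read 13.65, 13.63 and 13.63 against 12.90, 12.90 and 12.91 (0.73 ± 0.06; adjusted p = 1.59e-07). Both stood far above rest. Atp5md (0.42 ± 0.05) and Atp5d (0.48 ± 0.07, at 12.87, 13.02 and 12.99 against 12.48, 12.47 and 12.49) were higher as well. Cox7a2l (-1.65 ± 0.15) and Surf1 (-0.63 ± 0.09) were lower, in the direction that each took on stimulation without inhibitor. All inhibitor comparisons with stimulated wild-type cells share those 3 arrays, as those with resting wild-type cells share theirs.

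The inhibitors were compared directly at the same dose and time, which makes 1 pair of compounds with p-values adjusted over the 6873 genes. XCT790 arrays were lower than compound A arrays in 36 of 41 members (87.8%, against 27.8% of all genes) and higher in 1 (2.44%, against 24.8%), with a median of -0.47 (-0.44 with a common median, all genes -0.02). All 9 genes of complex III, all 17 of ATP synthase, the 3 assembly genes and 7 of 11 complex IV subunit genes were lower. Atp5l read 11.76, 11.83 and 11.77 with XCT790 against 12.54, 12.62 and 12.64 with compound A (-0.81 ± 0.06; adjusted p = 7.49e-08). Uqcr11 read 9.82, 9.98 and 9.86 against 11.13, 11.13 and 11.14 (-1.25 ± 0.10; adjusted p = 3.48e-07). Atp5j, the coupling factor subunit of the side stalk, read 11.75, 12.01 and 11.85 against 12.67, 12.60 and 12.61 (-0.76 ± 0.07; adjusted p = 5.72e-07). In each of these the XCT790 arrays lay well below the compound A arrays. Cox6b1 (-0.76 ± 0.07), Atp5k (-0.76 ± 0.07) and Atp5j2 (-0.62 ± 0.06) followed. Cyc1 was closer, at -0.29 ± 0.11 (adjusted p = 0.0445), and its call ended under 8 of 14 alternatives. Cox7a2l was the member that was higher, at 12.26, 11.85 and 11.94 against 11.22, 11.33 and 11.52 (0.66 ± 0.15; adjusted p = 0.00160).

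For 4 members no difference between the compounds passed. Cycs differed by 0.01 (95% interval -0.20 to 0.23; adjusted p = 0.941), with 12.89, 12.66 and 12.74 for XCT790 and 12.83, 12.77 and 12.65 for compound A, which overlap fully. This holds for the probe set used. The other Cycs probe sets averaged 11.33 and 10.64 with XCT790, lower than the 11.67 and 10.83 with compound A, and were not tested singly. Cox4i1 differed by -0.09 (interval -0.19 to 0.01; adjusted p = 0.136), and Cox7c by 0.35 (interval -0.0039 to 0.70; adjusted p = 0.0903). Cox6b2 differed by -1.26 (interval -2.47 to -0.05; adjusted p = 0.0743). These intervals do not show that the compounds act alike on the 4 genes. T cell markers also moved here, as 5 of 7 tested were lower with XCT790 than with compound A, and their part in the result was not tested.

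**Figure D4:**
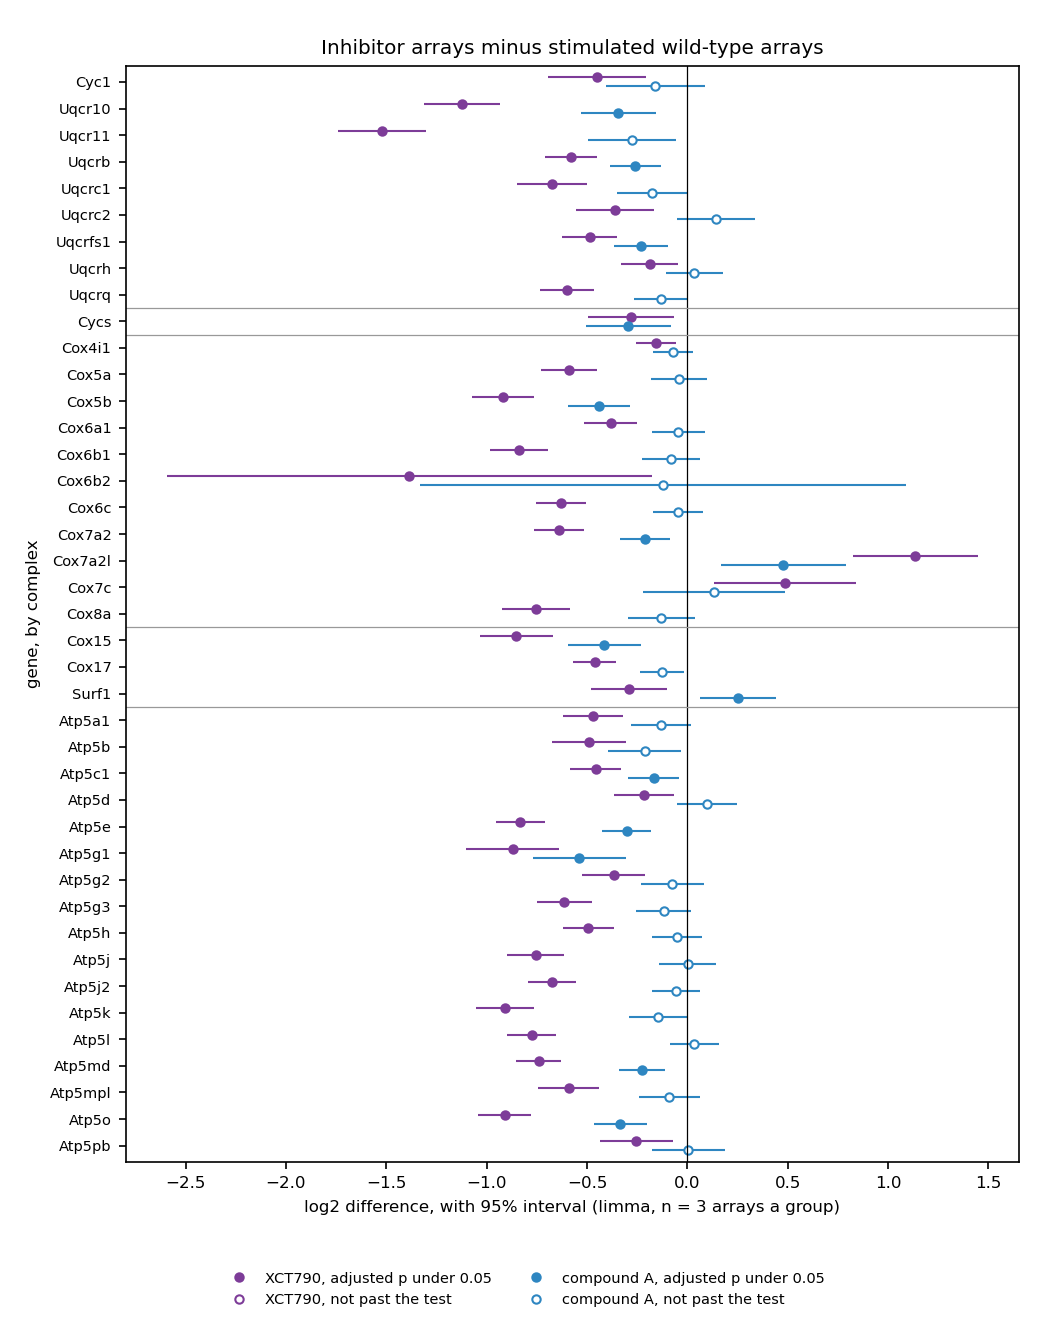
Log2 difference of XCT790 and of compound A arrays from stimulated wild-type arrays for each tested member, with 95% confidence intervals from the limma fit, grouped by complex. XCT790 points lie left of 0 for 39 of 41 members, most of them further than compound A, and Cox7a2l lies right of 0 for both.

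**Figure D5:**
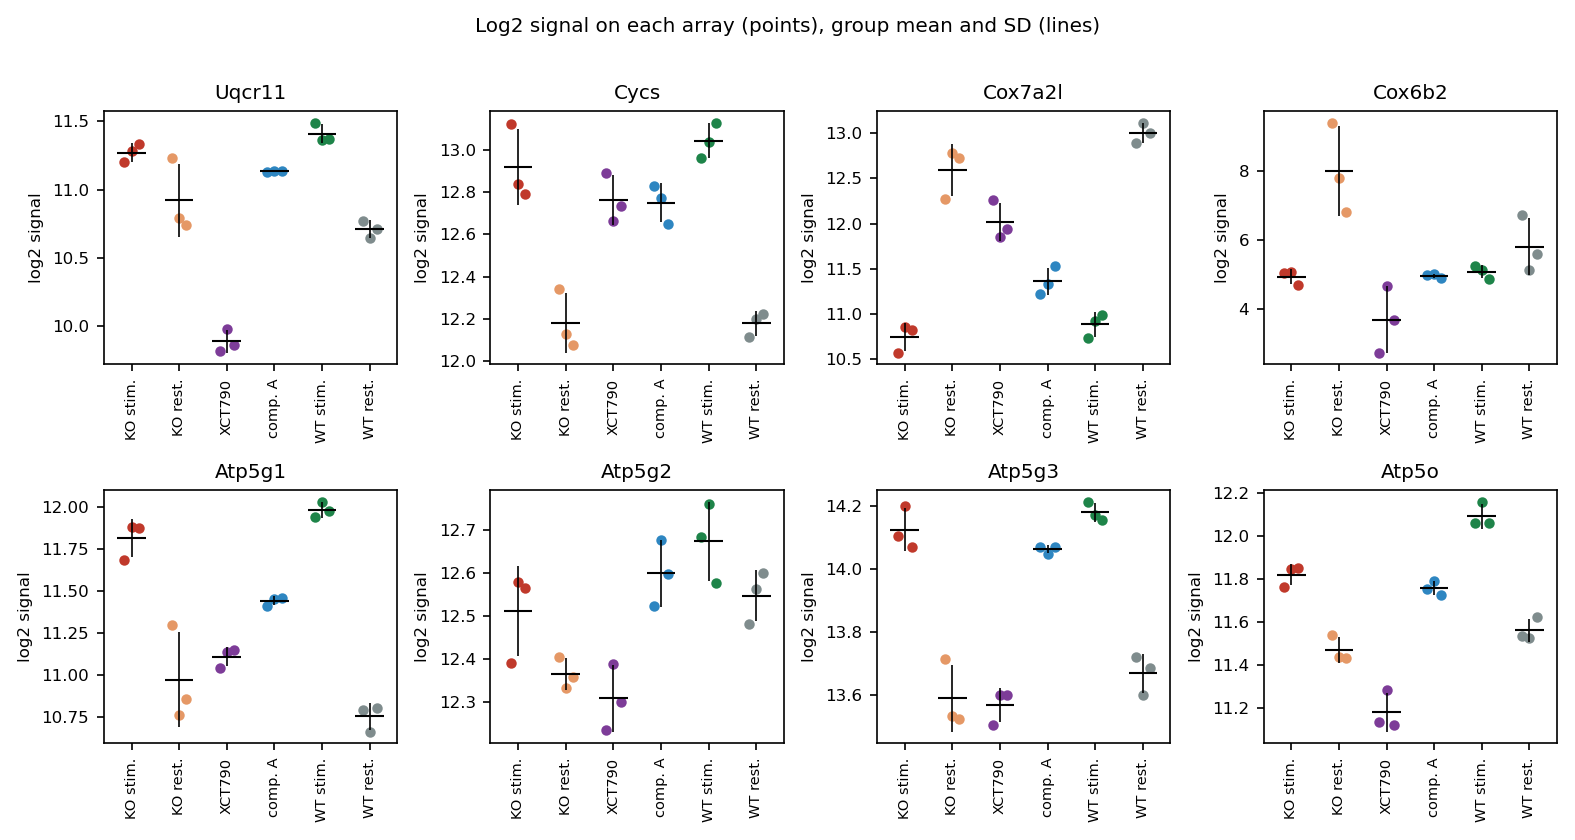
Log2 signal of Uqcr11, Cycs, Cox7a2l, Cox6b2, Atp5g1, Atp5g2, Atp5g3 and Atp5o on each of the 18 arrays (points) with the group mean (horizontal line) and SD (vertical line), each gene on its own axis, which does not start at 0. Uqcr11 and Atp5o are lowest with XCT790, and Cox7a2l is highest at rest and higher with XCT790 than in stimulated cells.

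Other genes of the same pathway, from lists chosen with earlier results of these data known, gave these counts. Over all tested genes, 36.9% were lower and 29.1% higher with XCT790 against stimulated wild-type cells, 18.7% and 14.5% with compound A, while stimulation raised 37.7% and lowered 35.7% in knockout cells and raised 37.0% and lowered 38.4% in wild-type cells. In stimulated knockout against stimulated wild-type cells, only 0.597% of all genes were lower and 1.59% higher. Of 32 tested complex I subunit genes, which feed electrons from NADH into the chain, 29 were lower and 1 higher with XCT790 against stimulated wild-type cells (median -0.79), 8 were lower and 1 higher with compound A (median -0.12), and 0 passed between stimulated knockout and wild-type cells (limma; 4 lower and 0 higher at an unadjusted p under 0.05). The share of all genes at that unadjusted cut was not computed. Stimulation raised 18 of the 32 and lowered 4 in knockout cells, and raised 22 and lowered 7 in wild-type cells. All 4 complex II genes were lower with XCT790, by -0.43 for Sdha, -0.81 for Sdhb, -1.09 for Sdhc and -1.20 for Sdhd. A further list held 25 tested genes, mostly assembly factors of complexes III, IV and ATP synthase with the complex IV subunit gene Ndufa4 among them, and of these 16 were lower with XCT790 and 2 higher. Uqcc1, an assembly factor of complex III, rose by 2.29 in knockout and 2.42 in wild-type cells on stimulation and was lower by -1.68 with XCT790. Sco2, a copper carrier for complex IV, rose by 1.82 and 1.69 and was lower by -1.32 with XCT790 and -1.48 with compound A.

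Among 13 tested regulators of respiratory genes, 8 were higher with XCT790 against stimulated wild-type cells and 3 lower (29.1% and 36.9% of all genes). Higher were Gabpa (0.70) and Gabpb1 (0.33), subunits of the ETS factor NRF2, Yy1 (0.77) and Nrf1 (1.11). Lower was Ppargc1b, which encodes PGC-1β (-1.17), with Esrra itself (-0.27) and Tfb1m (-0.59). Tfam, the mitochondrial transcription and packaging factor, gave -0.11 and did not pass. Between genotypes, 1 regulator was higher and 3 lower at rest, and 1 higher and 2 lower after stimulation, Esrra among the lower in both. Of all genes, 6.74% were higher and 12.3% lower at rest, and 1.59% higher and 0.597% lower after stimulation. Crtc3, a coactivator of CREB, was higher in knockout cells by 1.16 after stimulation and 1.03 at rest (adjusted p = 0.00648 and 0.00447). Polrmt, the mitochondrial RNA polymerase, was lower by -0.38 and -0.47 (adjusted p = 0.0213 and 0.00192), and Crtc2 was lower at rest (-0.61; adjusted p = 0.0262).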

How the data were processed

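RNA of CD4+ T cells was measured on 18 Affymetrix Mouse Genome 430A 2.0 arrays. The deposited log2 signals, 1 per probe set, were made by the authors with GCRMA, per the submitters' processing notes. All arrays hold the same sorted values, so they were quantile normalized. Groups come from the labels. Left out of the 22690 probe sets were 64 controls, 691 that name several genes and 1555 that name none. The brightest probe set stood for each of 12393 genes, and the 6873 genes at or above log2 4 on at least 3 arrays were tested. One limma fit (version 3.58.1, R 4.3.3) held a mean for each group and no block. P-values were adjusted over the 6873 genes of each comparison by the Benjamini-Hochberg method, and an adjusted p under 0.05 passes. Errors beside differences are standard errors, and intervals are 95% from 12 residual and 2.22 prior degrees of freedom. The fit was tested on simulated data. With 3 arrays per group, their number limits the precision.

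The members, the lists and the tests were chosen with earlier results of these data known. Members named with array values are Cycs, Cyc1 and Cox17, up to 3 rises and 3 falls per complex on stimulation, and up to 6 of smallest adjusted p in each other comparison; genes shown beside these were added to describe subunit families. Equally numbered arrays were checked for pairing by correlating their deviations from the group means. At rest, knockout and wild-type arrays correlated at 0.645, 0.406 and 0.254. Correlations over 0.1 for all 3 numbers were also found between knockout and wild-type stimulated arrays, between stimulated and resting knockout arrays, and between stimulated wild-type arrays and those of either inhibitor. Alternatives tried were a floor of log2 6 or none, probe sets averaged per gene, a common median, the array number as a block, fitting only the compared groups, array weights, a trended and robust prior, and leaving out each array. Stimulated knockout arrays as the inhibitors' reference were added after seeing the data.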

Additional observations from a re-analysis of the deposited data

How the results depend on the processing

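Counts are members that passed, of 41. Apart from the stimulated knockout reference, the share of all genes that passed under each alternative was not computed. Whether a changed count is particular to the members was therefore not tested. Leaving out 1 array at a time gave 25 to 27 higher and 4 lower for stimulated against resting knockout cells, 24 to 27 and 4 for wild-type cells, and 0 and 0 for the interaction. For knockout against wild-type cells it gave 1 to 3 higher and 1 to 4 lower at rest, and 0 and 0 after stimulation. For XCT790 against stimulated wild-type cells it gave 1 to 2 higher and 35 to 37 lower, for compound A 0 to 2 and 10 to 11, and for XCT790 against compound A 1 and 33 to 36. Against resting wild-type cells it gave 3 to 7 higher and 23 to 26 lower with XCT790, and 19 to 20 and 4 to 5 with compound A. At rest, 4 members were lower in knockout cells with no filter, 5 with the mean of all probe sets, 4 with the replicate block, 7 with a trended and robust prior and 12 with array weights, whereas 0 were lower and 0 higher when only the compared groups were fitted. After stimulation, 1 was higher with no filter and 1 with array weights, and lower were 0 with a common median, 2 with the mean of all probe sets, 0 with only those groups fitted and 7 with array weights. For compound A against stimulated wild-type cells, no filter left 1 higher, array weights gave 4 higher and 20 lower, and stimulated knockout arrays as reference gave 6 lower. Array weights gave 1 lower in the interaction and 9 lower for compound A against rest, and for XCT790 against compound A 2 were higher with array weights and 2 with the mean of all probe sets. The array weight fit stopped before its convergence tolerance. Signs turned with the mean of all probe sets for Atp5c1, to 0.12 with XCT790 and 0.071 with compound A against stimulated wild-type cells, 0.047 between the compounds and 0.063 for XCT790 against rest. For XCT790 against rest Atp5g2 also turned, to 0.19, and Uqcr10 to 0.63, which passed in the new direction (limma adjusted p = 5.7e-07). The probe sets added for Atp5c1 and Atp5g2 averaged 2.99 and 3.77 over the 18 arrays, under log2 4. That of Atp5g2 averaged 4.17 with XCT790 and 3.54 in resting wild-type cells. The added signal for these genes thus lay under or near log2 4, whereas the probe sets added for Uqcr10 averaged 8.92 and 8.42. The replicate block ended the compound A call of Atp5c1 (adjusted p = 0.0513), and, where the numbers did not pair all arrays, those of Cox15 on stimulation in wild-type cells, Cyc1 between the compounds and Cox6a1 for compound A against rest. It ended no other call of a member. The causes of the other changes were not tested. GCRMA signals near 2.2 carry no measure of depth, so low members have only a floor.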

Other observations

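In 6 members stimulation passed in neither genotype, and 5 of them belong to ATP synthase: Atp5c1, Atp5g2, Atp5h, Atp5j2 and Atp5pb, the γ, c, d, f and b subunit genes. The other was Cox7c. These results use 1 probe set per gene. Another Atp5pb probe set, averaging 12.05 over the 18 arrays, rose by 0.32 in knockout and 0.36 in wild-type cells and was not tested singly. All 5 ATP synthase genes were nonetheless lower with XCT790. Atp5h read 12.63, 12.80 and 12.79 with XCT790 against 13.23, 13.24 and 13.23 in stimulated wild-type cells (-0.49 ± 0.06, SE; limma adjusted p = 4.24e-06), and against 13.23, 13.26 and 13.27 in resting wild-type cells (-0.51 ± 0.06; adjusted p = 1.91e-06). Its XCT790 arrays lay below all others. Atp5c1 read 12.64, 12.84 and 12.62 against 13.17, 13.17 and 13.14 in stimulated and 13.17, 13.09 and 13.12 in resting wild-type cells (-0.46 ± 0.06 and -0.42 ± 0.06). Uqcrfs1, which rose on stimulation, stood at 11.54, 11.56 and 11.64 with XCT790, against 12.05, 12.06 and 12.10 in stimulated wild-type cells (-0.49 ± 0.06; adjusted p = 1.01e-05) and 11.37, 11.49 and 11.58 in resting wild-type cells (0.10 ± 0.06; adjusted p = 0.166). Its XCT790 arrays overlapped the resting ones and not the stimulated ones. These genes were chosen after their values were seen.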
